A study of Mus musculus with 9 samples.

Results

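10 genes of the blood-brain barrier were followed across 9 hippocampal RNA libraries of the mouse: the transporters and receptors Slc2a1, Slc7a5, Slco1a4, Abcb1a, Abcg2, Mfsd2a and Lrp1, and the vesicle genes Cav1, Cavin1 and Plvap. They were taken by gene symbol from a list drawn up with earlier results of these data known, and all 10 were found among the 18474 protein-coding genes of the deposited table. All 10 also passed the filter on low counts that left 14752 genes for testing.

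The study compared 3 groups of wild type mice, each sampled as hippocampal tissue at 30 days. KA+NBP mice had received both KA and NBP, KA mice had been injected with KA only, and sham mice were the operated controls. The abbreviation KA is taken to mean kainic acid, an excitatory glutamate analogue with which temporal lobe epilepsy is modelled, and NBP to mean the butylphthalide of the series title. Mice were allocated at random and 3 per group were sequenced, so a library stands for 1 mouse; strain, age, sex and doses are not in the labels used here. Libraries are named by group and replicate number, so that KA 3 is replicate 3 of the KA group. Library totals ran from 15699251 to 16374637 estimated counts. Levels are given as CPM, in which each count is taken relative to its library total after scaling by TMM factors (trimmed mean of M values), and a count of 0 would allow up to 0.183 to 0.191 CPM, a limit that covers counting error only.

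The library KA+NBP 2 stood apart from the others of its group. Its 9 choroid plexus markers summed to 1210 CPM, against 119 to 240 CPM in the other 8 libraries of the 3 groups. Its 9 astrocyte markers summed to 9184 CPM, against 5098 and 5487 CPM in KA+NBP 1 and KA+NBP 3, and its 9 microglial markers to 766 CPM, against 375 and 359 CPM in those libraries. Results that involve KA+NBP mice are therefore given with and without that library where they differ.

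Brain capillary endothelium seals its junctions and moves solutes through dedicated carriers: nutrients enter by facilitative transporters, and many drugs are returned to the blood by ATP-driven efflux pumps. Vesicular traffic across the cell is normally sparse. Caveolae, flask-shaped pits built from caveolin and cavin proteins, are 1 route of such traffic, and the lipid transporter Mfsd2a is known in mice for holding caveola formation down. Plvap forms the diaphragms of fenestrated and leaky vessels and is normally low in mature barrier endothelium. Lrp1 is a large endocytic receptor made by neurons, glia and vascular cells.

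Promoter sequences from RefSeq (GRCm38.p6, 250 bases before the annotated start to 50 from it) were found for 8 of the 10 genes in 12 entries; Slc7a5 and Plvap had no entry. The 4 shown belong to the 3 genes that differed most between libraries, Cav1, Mfsd2a and Cavin1, and to Slc2a1, the glucose carrier. They lie at chr6:17306085-17306384 on the plus strand (Cav1), chr11:100970568-100970867 on the minus strand (Cavin1), chr4:122961139-122961438 on the minus strand (Mfsd2a) and chr4:119108495-119108794 on the plus strand (Slc2a1). Capitals mark every match, on either strand, to any of 5 motifs. The GC box was searched as GGGCGG. The TATA box was searched as TATAAA. The core of the hypoxia response element was searched as ACGTG. The AP-1 motif was searched as TGANTCA. The antioxidant response element was searched as TGANNNNGC. In the 4 windows no match overlapped another.
Cav1: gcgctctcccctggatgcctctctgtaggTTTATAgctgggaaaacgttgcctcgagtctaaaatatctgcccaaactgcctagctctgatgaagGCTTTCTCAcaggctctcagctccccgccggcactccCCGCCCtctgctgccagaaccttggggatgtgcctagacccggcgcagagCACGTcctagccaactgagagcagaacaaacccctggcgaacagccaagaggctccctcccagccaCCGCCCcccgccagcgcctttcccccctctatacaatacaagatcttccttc
Cavin1: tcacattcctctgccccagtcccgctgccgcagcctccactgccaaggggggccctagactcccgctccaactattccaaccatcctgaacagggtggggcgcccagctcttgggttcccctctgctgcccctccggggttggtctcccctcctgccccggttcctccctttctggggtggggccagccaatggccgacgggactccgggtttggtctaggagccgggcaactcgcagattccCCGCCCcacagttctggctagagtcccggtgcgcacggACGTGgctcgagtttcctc
Mfsd2a: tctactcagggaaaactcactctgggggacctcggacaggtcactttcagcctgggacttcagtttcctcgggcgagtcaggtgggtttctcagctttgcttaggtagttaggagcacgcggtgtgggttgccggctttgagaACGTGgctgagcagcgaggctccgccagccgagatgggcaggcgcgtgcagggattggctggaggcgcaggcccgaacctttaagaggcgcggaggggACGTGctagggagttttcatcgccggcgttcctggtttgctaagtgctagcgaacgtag
Slc2a1: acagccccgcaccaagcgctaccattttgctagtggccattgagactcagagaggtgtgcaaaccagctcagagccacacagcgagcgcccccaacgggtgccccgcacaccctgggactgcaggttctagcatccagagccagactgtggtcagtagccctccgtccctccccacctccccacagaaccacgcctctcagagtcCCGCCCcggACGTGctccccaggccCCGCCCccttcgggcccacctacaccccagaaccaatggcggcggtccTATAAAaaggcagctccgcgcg
The letters ACGTG occurred in the 4 windows shown, with 2 matches in Mfsd2a and 1 in each of the other 3. Over all entries of the 10 genes they occurred in 5 of 12, the fifth being a second Cavin1 window that starts 2 bases away, and they were in none of the entries of Abcb1a, Abcg2, Slco1a4 and Lrp1 or in the second of Cav1. They were found in 19.6% of the 32851 promoters of the same table. The GC box was present in the windows of Cav1, Cavin1 and Slc2a1, in 7 of the 12 entries and in 35.7% of all promoters. Cav1 also held the TATA letters at -221 and the antioxidant letters at -155, and Slc2a1 the TATA letters at 28, in bases from the start to the leftmost base of the match. The TATA letters occurred in 4 of the 12 entries and 13.6% of all promoters, and the antioxidant letters in 4 of the 12 entries and 41.3% of all promoters. The AP-1 letters had 0 matches in the 12 entries and were found in 7.81% of all promoters. The 4 windows were 59.3% (Cav1), 66.7% (Cavin1), 60.3% (Mfsd2a) and 65.3% (Slc2a1) G or C, against a median of 52.7% over all promoters. Such matches describe the letters only, and the files hold no measurement of factor binding.

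In KA against sham hippocampus, 7 of the 10 genes rose and 0 fell. Cav1 rose most, 3.16-fold, followed by Mfsd2a at 2.32-fold and Cavin1 at 2.20-fold, while Slc2a1, Abcb1a, Lrp1 and Abcg2 rose by 1.27-fold to 1.48-fold. Slc7a5, Slco1a4 and Plvap did not pass the test. The background for that count is wide: 19% of all 14752 tested genes were higher and 14.6% lower in KA mice, 33.6% in all (edgeR quasi-likelihood F test, Benjamini-Hochberg adjusted p under 0.05 over all tested genes). On the scale of TPM, which also divides by transcript length (limma), the balance of calls over all genes was 2274 higher and 3272 lower, against 2802 higher and 2159 lower in the count fit, and 5 of the 10 genes were higher. All 3 KA libraries lay above all 3 sham libraries for 8 of the 10 genes, against 29.3% of all tested genes. The median log2 fold change of the 10 genes was 0.43, against 0.01 over all tested genes. With sham 1 or sham 2 left out only 2 rose, with KA 3 left out 3, and with KA 1 or KA 2 left out 4. The number that rose ran from 6 to 8 when sham 3 or a KA+NBP library was left out.

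In KA+NBP against KA hippocampus, 3 of the 10 genes fell, Cav1, Lrp1 and Abcg2, and 0 rose. Over all tested genes 12.7% were lower and 10% higher in KA+NBP mice, 22.7% in all, by the same edgeR test; these calls were 1875 lower and 1480 higher, against 1679 lower and 2479 higher on the TPM scale. All 3 KA+NBP libraries lay below all 3 KA libraries for 6 of the 10 genes, against 20.4% of all tested genes. The median log2 fold change of the 10 was -0.38, against -0.01 over all tested genes. Without KA+NBP 2 the number that fell was 6, and without KA+NBP 1 or without KA 3 it was 0. It was 1 without KA 2. With only the 6 libraries of these groups in the fit it was also 0, with edgeR adjusted p-values of 0.0634 for Cav1, 0.0805 for Lrp1 and 0.119 for Abcg2. This comparison and the preceding one share the KA libraries, so their values for a gene are not independent of each other.

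In KA+NBP against sham hippocampus, 0 of the 10 genes passed the edgeR test, and the libraries of the groups overlapped for all 10; over all tested genes 6.37% did not overlap in either direction. At an unadjusted p under 0.05 the count was also 0, and DESeq2 called 0. The percentage called over all tested genes was 0 with edgeR, with 248 genes at an unadjusted p under 0.05. Log2 fold changes ran from -0.05 (SE 0.20) for Plvap to 0.38 (SE 0.31) for Mfsd2a, with a median of 0.08. Cav1 had 0.22 (SE 0.35) and Cavin1 0.28 (SE 0.32), and without KA+NBP 2 their values were -0.29 (SE 0.25) and -0.25 (SE 0.18), also not called. A p above the threshold does not show that the groups were alike: the SE for Cav1, Cavin1 and Mfsd2a was 0.31 to 0.35 on the log2 scale.

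**Figure D1:**
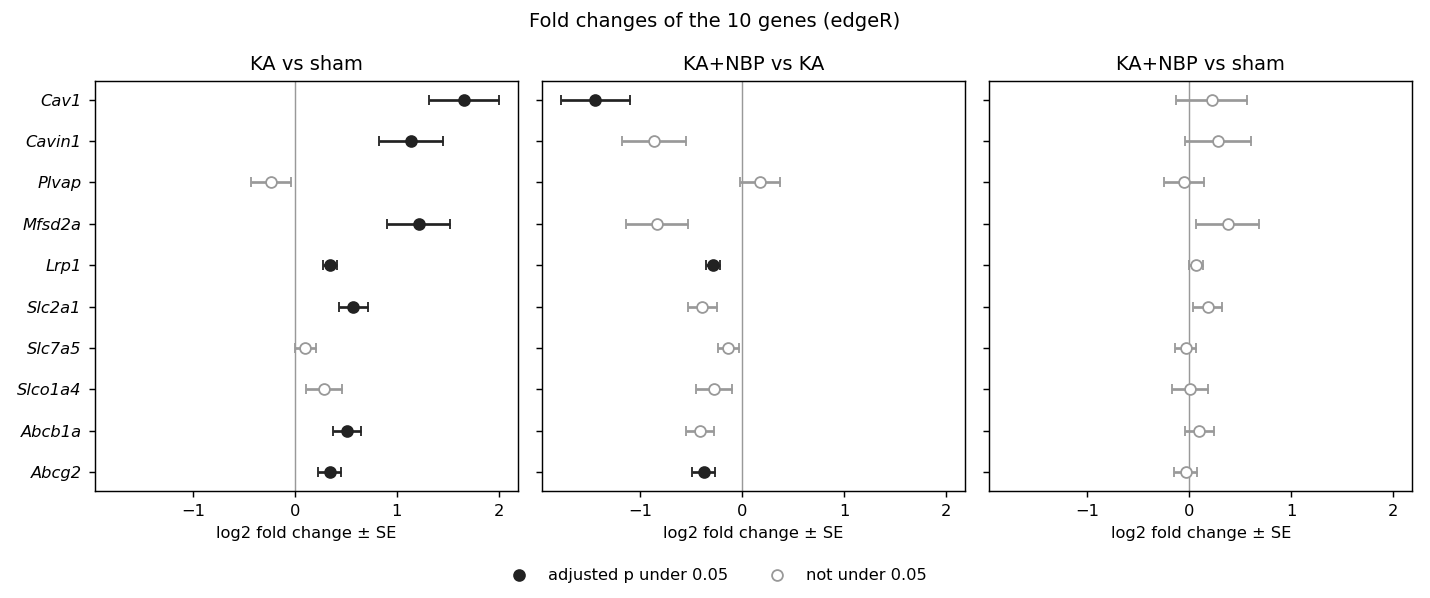
Log2 fold change of each gene (points) with its SE (bars) in KA vs sham, KA+NBP vs KA and KA+NBP vs sham, from the edgeR fit; filled points have an adjusted p under 0.05. Cav1 lies at 1.66 in KA vs sham and at -1.44 in KA+NBP vs KA, and all 10 points of KA+NBP vs sham are open.

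Cav1, which encodes caveolin-1, the structural protein of caveolae (Gene ID 12389, GRCm39 chr6:17306287-17341327), had 11.7, 22.7 and 8.35 CPM in KA+NBP libraries 1 to 3, 32.6, 32.5 and 51.0 CPM in KA libraries and 10.2, 11.9 and 14.7 CPM in sham libraries. The 3 KA libraries were the highest of the 9, with KA 3 above all others, and KA+NBP 2 lay between the KA libraries and the remaining 5. In KA against sham mice the log2 fold change was 1.66 (SE 0.34, edgeR adjusted p = 0.00711), and it passed the threshold whichever library was left out, with 0.0362 as the highest adjusted p. Between KA+NBP and KA mice it was -1.44 (SE 0.34, edgeR adjusted p = 0.0180). It missed the threshold when KA 3 (edgeR adjusted p = 0.0623) or KA+NBP 1 (0.0706) was left out. Without KA+NBP 2 the log2 fold change was -1.95 (edgeR adjusted p = 2.06e-04). KA+NBP and sham libraries overlapped, at means of 14.2 ± 7.50 and 12.3 ± 2.28 CPM (SD, n = 3 each).

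Cavin1, the coat protein that stabilises caveolae (Gene ID 19285, chr11:100847562-100861873), had 12.5, 25.5 and 9.42 CPM in KA+NBP libraries, 27.6, 30.2 and 28.4 CPM in KA libraries and 10.5, 12.6 and 16.1 CPM in sham libraries. The KA libraries were close to each other and above the other 6, and KA+NBP 2 again came nearest to them. The log2 fold change in KA against sham mice was 1.14 (SE 0.32, edgeR adjusted p = 0.0235). Leaving out sham 1 (adjusted p = 0.0893), sham 2 (0.0749), KA 1 (0.0515), KA 2 (0.0612) or KA 3 (0.0571) ended that call. The value of -0.86 (SE 0.31) in KA+NBP against KA mice missed the threshold (edgeR adjusted p = 0.0764), although the libraries did not overlap. Without KA+NBP 2 it was -1.39 (edgeR adjusted p = 2.05e-04). That was the only 1 of 9 fits with a library left out that passed in this comparison, with edgeR adjusted p up to 0.217.

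Plvap, the diaphragm protein of fenestrated vessels (Gene ID 84094, chr8:71950397-71964446), was the least abundant of the 10, at 67 to 104 counts per library. It had 6.04, 4.46 and 6.40 CPM in KA+NBP libraries, 6.14, 4.11 and 4.69 CPM in KA libraries and 6.11, 5.78 and 5.65 CPM in sham libraries. The 3 groups overlapped, and the highest KA library was as high as the highest sham library. The log2 fold change was -0.23 (SE 0.20, edgeR adjusted p = 0.393) in KA against sham mice and 0.18 (SE 0.20, edgeR adjusted p = 0.543) in KA+NBP against KA mice. The locus overlaps the protein-coding genes Gtpbp3 and Gm46041 in RefSeq, and since the sources used here do not state whether counting used strand, reads of overlapping genes cannot be told apart.

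**Figure D2:**
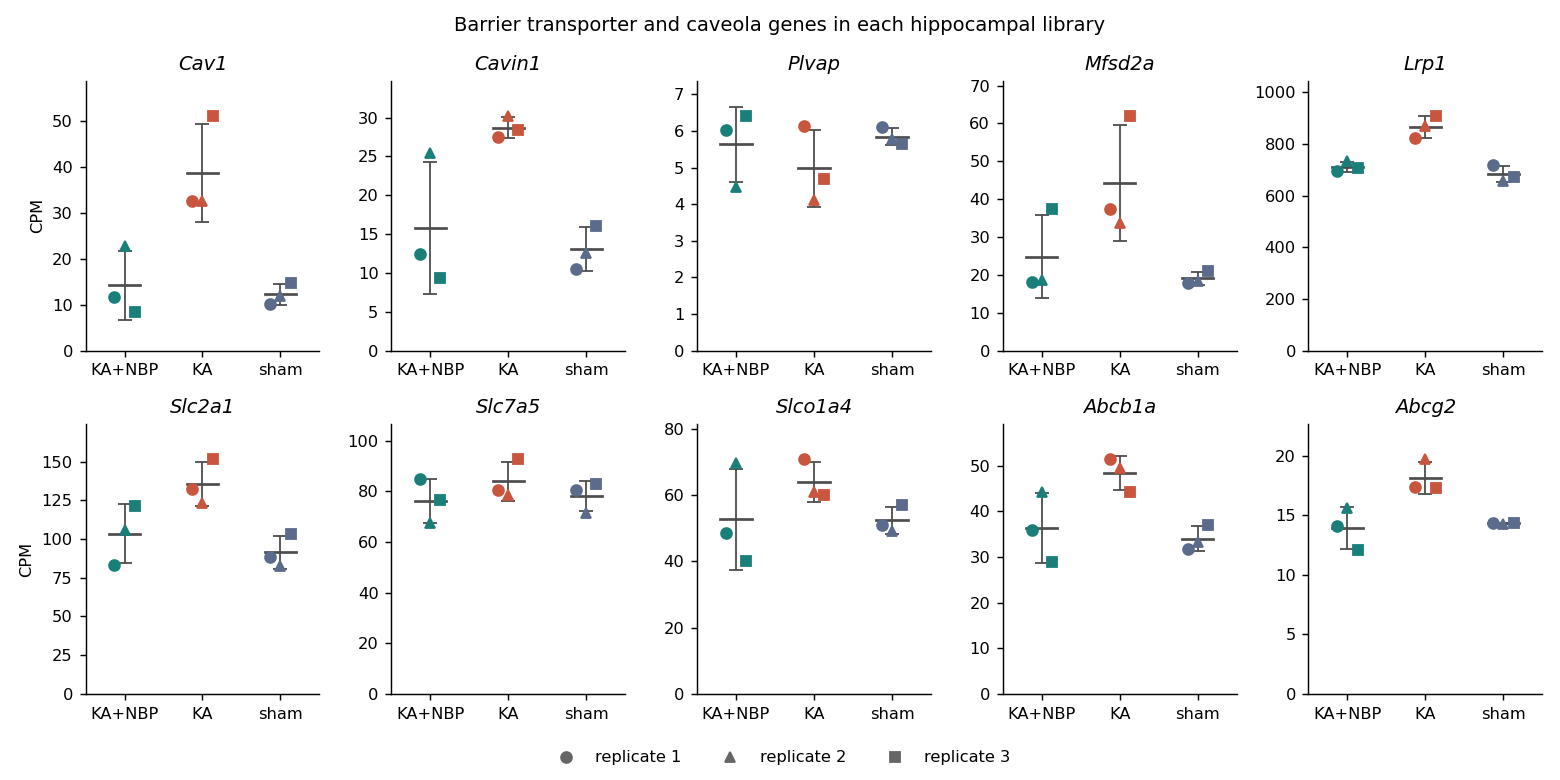
CPM of each gene (vertical axes from 0) in the 9 libraries, with KA+NBP, KA and sham from left to right; symbols give the replicate number, horizontal lines the group mean and bars the SD (n = 3). The KA libraries lie above the sham libraries in 8 panels, all but Slc7a5 and Plvap, and KA+NBP 2 is the highest of its group for Cav1 and Cavin1.

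Mfsd2a, the sodium-dependent transporter of lysophosphatidylcholine that carries docosahexaenoic acid into the brain (Gene ID 76574, chr4:122840643-122857306), had 18.2, 18.7 and 37.4 CPM in KA+NBP libraries, 37.5, 33.6 and 61.9 CPM in KA libraries and 17.8, 18.4 and 21.0 CPM in sham libraries. All KA libraries exceeded all sham libraries, and KA 3 was the highest. KA+NBP 3 lay within the KA range and the other KA+NBP libraries within the sham range. Mfsd2a rose in KA against sham mice, with a log2 fold change of 1.22 (SE 0.31, edgeR adjusted p = 0.0166), and leaving out sham 1 (adjusted p = 0.0633), sham 2 (0.0578) or KA 3 (0.0566) ended the call. The value in KA+NBP against KA mice was -0.84 (SE 0.30, edgeR adjusted p = 0.0750). Without KA+NBP 3 that value was -1.27 (edgeR adjusted p = 0.0215). That was the only 1 of 9 fits with a library left out that passed, and the highest edgeR adjusted p among them was 0.249. The library that lay high for Mfsd2a in the KA+NBP group was thus replicate 3, while for Cav1 and Cavin1 it was replicate 2.

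Lrp1, the receptor for apolipoprotein E and amyloid beta among other ligands (Gene ID 16971, chr10:127374026-127457158), had 696, 733 and 707 CPM in KA+NBP libraries, 822, 870 and 908 CPM in KA libraries and 717, 658 and 673 CPM in sham libraries. The KA libraries were the 3 highest, and the libraries of the other groups were mixed with each other. The rise in KA against sham mice was small, with a log2 fold change of 0.34 (SE 0.07, edgeR adjusted p = 0.00637), and held whichever library was left out, with 0.0386 as the highest adjusted p. It fell in KA+NBP against KA mice, by 0.28 on the log2 scale (SE 0.07, edgeR adjusted p = 0.0202). Leaving out KA 2 (adjusted p = 0.0557), KA 3 (0.0606), KA+NBP 1 (0.0747) or KA+NBP 3 (0.0687) ended the call in KA+NBP mice. Lrp1 was the most abundant of the 10 genes in CPM and had the smallest SE of them.

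Slc2a1, the glucose transporter GLUT1 of barrier endothelium and astrocytes (Gene ID 20525, chr4:118965942-118995999), had 83.3, 106 and 121 CPM in KA+NBP libraries, 132, 123 and 151 CPM in KA libraries and 88.4, 82.6 and 103 CPM in sham libraries. The KA libraries lay above the other 6, KA+NBP 3 only just below the lowest of them. Slc2a1 rose in KA against sham mice, with a log2 fold change of 0.57 (SE 0.14, edgeR adjusted p = 0.0157), and leaving out sham 1 (adjusted p = 0.0599), sham 2 (0.0699) or KA 3 (0.0554) ended the call. For KA+NBP against KA mice it was -0.39 (SE 0.14, edgeR adjusted p = 0.0756). Of 9 fits with 1 library left out only 1 passed, that without KA+NBP 3 (-0.52, edgeR adjusted p = 0.0498). Without KA+NBP 2 it was -0.41 (edgeR adjusted p = 0.0587), and the highest adjusted p of these fits was 0.214.

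Slc7a5, which encodes LAT1, the light chain of the exchanger for large neutral amino acids and L-DOPA (Gene ID 20539, chr8:122607885-122634425), had 84.8, 67.4 and 76.6 CPM in KA+NBP libraries, 80.4, 78.6 and 92.5 CPM in KA libraries and 80.5, 71.4 and 82.7 CPM in sham libraries. The groups overlapped throughout. Log2 fold changes were 0.10 (SE 0.10, edgeR adjusted p = 0.478) in KA against sham mice and -0.14 (SE 0.10, edgeR adjusted p = 0.360) in KA+NBP against KA mice.

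Slco1a4, which encodes OATP1A4, a carrier of organic anions (Gene ID 28250, chr6:141751164-141802011), had 48.4, 69.5 and 40.0 CPM in KA+NBP libraries, 70.7, 60.7 and 60.1 CPM in KA libraries and 51.1, 49.0 and 57.0 CPM in sham libraries. The KA libraries lay above the sham libraries by a small margin, whereas the KA+NBP libraries spanned almost the whole range of the 9, with replicate 2 near the top and replicate 3 at the bottom. The log2 fold change in KA against sham mice was 0.29 (SE 0.18, edgeR adjusted p = 0.238). Against KA mice, KA+NBP mice gave -0.28 (SE 0.18, edgeR adjusted p = 0.277). Without KA+NBP 2 the spread of the fit was smaller: the KA against sham value then passed (edgeR adjusted p = 0.0347), and the KA+NBP against KA value was -0.53 (SE 0.11, edgeR adjusted p = 0.00343). Each passed in only that 1 of 9 fits with a library left out. The highest edgeR adjusted p of those fits was 0.474 in KA against sham and 0.653 in KA+NBP against KA.

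Abcb1a, a mouse gene for the drug efflux pump P-glycoprotein (Gene ID 18671, chr5:8617091-8798575), had 35.9, 44.2 and 28.9 CPM in KA+NBP libraries, 51.4, 49.6 and 44.3 CPM in KA libraries and 31.7, 33.3 and 37.1 CPM in sham libraries. The KA libraries were the 3 highest, with KA+NBP 2 just below them. Abcb1a rose in KA against sham mice, with a log2 fold change of 0.51 (SE 0.14, edgeR adjusted p = 0.0228). Leaving out sham 1 (adjusted p = 0.0854), sham 2 (0.0784), KA 1 (0.0678) or KA 2 (0.0617) ended the call, as did the TPM scale (limma adjusted p = 0.0639). Set against KA mice, KA+NBP mice gave -0.41 (SE 0.14, edgeR adjusted p = 0.0616), and -0.58 without KA+NBP 2 (edgeR adjusted p = 0.00248). The latter was the only 1 of 9 fits with a library left out that passed, with edgeR adjusted p up to 0.161.

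Abcb1a was the only 1 of the 10 genes with estimated counts that were not whole, in all 9 libraries. Some of its reads may be shared with its related neighbour Abcb1b, the other mouse P-glycoprotein gene. With the counts of the pair summed, a choice made after the data were seen, the log2 fold change was 0.55 (SE 0.13, edgeR adjusted p = 0.0128) in KA against sham mice and -0.46 (SE 0.13, edgeR adjusted p = 0.0344) in KA+NBP against KA mice. The summed pair thus passed in the second comparison where Abcb1a alone did not. The Abcb1a locus also overlaps the protein-coding gene Rundc3b in RefSeq, and Slc2a1 and Lrp1 each overlap 2 long noncoding RNA genes there.

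Abcg2, the breast cancer resistance protein, an efflux pump of wide substrate range (Gene ID 26357, chr6:58561476-58671846), had 14.1, 15.7 and 12.1 CPM in KA+NBP libraries, 17.4, 19.7 and 17.3 CPM in KA libraries and 14.3, 14.3 and 14.4 CPM in sham libraries. The KA libraries lay above all others, and the sham libraries were almost equal. The log2 fold changes, 0.34 (SE 0.11, edgeR adjusted p = 0.0405) in KA against sham mice and -0.38 (SE 0.11, edgeR adjusted p = 0.0376) in KA+NBP against KA mice, both lay close to the threshold. Of 16 alternatives, the KA against sham call held in 6, among them without KA+NBP 2 (adjusted p = 0.0157) or KA+NBP 3 (0.0254). It was lost without sham 1 (0.108), sham 2 (0.119), sham 3 (0.105), KA 1 (0.0625), KA 2 (0.125), KA 3 (0.0616) or KA+NBP 1 (0.0554), and with no filter on low counts (0.0520) or on the TPM scale (0.0986). The KA+NBP against KA call held in 5 of 16 alternatives, among them without KA+NBP 2 (0.00633). It was lost when any of the other 8 libraries was left out (adjusted p = 0.0634 to 0.117), with only the 6 libraries compared (0.119) and on the TPM scale (0.0811, limma).

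Levels of different genes can be compared only per transcript length. By deposited TPM in KA+NBP mice the order was Lrp1 (121 ± 6.54), Slc2a1 (112 ± 20.6), Slc7a5 (58.4 ± 5.51), Slco1a4 (38.4 ± 12.4), Mfsd2a (32.2 ± 13.9), Abcb1a (18.5 ± 4.39), Abcg2 (17.6 ± 2.85), Cav1 (16.2 ± 8.48), Cavin1 (13.5 ± 7.68) and Plvap (7.99 ± 1.29; TPM, mean ± SD, n = 3). In KA mice Cav1 stood at 40.9 ± 10.7 TPM and Mfsd2a at 54.4 ± 17.9 TPM, so that Cav1 ranked above Abcb1a (23.3 ± 2.06 TPM), Cavin1 (23.0 ± 1.12 TPM) and Abcg2 (21.7 ± 1.53 TPM). In sham mice Cav1 (13.7 ± 2.75 TPM) ranked below Abcg2 (17.9 ± 0.292 TPM) and Abcb1a (17.2 ± 1.38 TPM). The sham order ran from Lrp1 (116 ± 4.63 TPM) and Slc2a1 (98.7 ± 11 TPM) down to Cavin1 (11.1 ± 2.37 TPM) and Plvap (8.32 ± 0.323 TPM). Neighbours whose sham libraries overlapped, and whose order is therefore uncertain, were Abcg2 with Abcb1a, Abcb1a with Cav1, and Cav1 with Cavin1. In KA+NBP libraries the overlapping neighbours were Lrp1 with Slc2a1, Slco1a4 with Mfsd2a, and every pair of neighbours from Abcb1a down to Plvap. The deposited FPKM gave the same sham order.

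Vessel markers moved in the same direction as the barrier genes that passed the test. The 15 endothelial markers, which do not include any of the 10 genes, were all above 0 in all 9 libraries and summed to 253, 326 and 243 CPM in KA+NBP libraries, 354, 380 and 390 CPM in KA libraries and 238, 242 and 283 CPM in sham libraries. In KA against sham mice 10 of the 15 rose and 0 fell, against 19% and 14.6% of all tested genes. Their median log2 fold change was 0.61, and Pecam1, an adhesion molecule of endothelial junctions, had 0.74 (SE 0.16, edgeR adjusted p = 0.00951). The endothelial count was 2 without sham 1 or 2, 6 without KA 2 and 3 without KA 3. The 11 markers of mural cells, the pericytes and smooth muscle of the vessel wall, summed to 206 to 322 CPM in KA+NBP, 410 to 439 CPM in KA and 237 to 268 CPM in sham libraries. Of these 10 rose and 0 fell in KA against sham mice, among them the platelet-derived growth factor receptor Pdgfrb at 0.70 (SE 0.13, edgeR adjusted p = 0.00452). The mural count was 5 without sham 1, 6 without sham 2 and 6 without KA 2.

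Relative to KA mice, 4 of 15 endothelial and 8 of 11 mural markers fell in KA+NBP mice, and 0 of either rose. Over all tested genes 12.7% fell and 10% rose. With only the 6 libraries of these groups in the fit, 0 endothelial and 2 mural markers fell. Pecam1 fell by 0.61 on the log2 scale (SE 0.16, edgeR adjusted p = 0.0288), and Pdgfrb by 0.57 (SE 0.12, edgeR adjusted p = 0.0148). With KA+NBP 2 left out 11 endothelial markers fell, with sham 1 or sham 3 left out 2, and with sham 2, any KA library, KA+NBP 1 or KA+NBP 3 left out 0. The mural count was 5 without KA 1 or 2, 2 without KA+NBP 1 or 3 and 11 without KA+NBP 2. In bulk tissue, fewer cells of a type and less RNA per cell cannot be told apart.

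Markers of other cell types also moved. Shares over all tested genes were 19% higher and 14.6% lower in KA against sham mice. They were 12.7% lower and 10% higher in KA+NBP against KA mice. In KA against sham mice 8 of 9 astrocyte and 8 of 9 microglial markers rose, with summed levels of 11200 to 13700 CPM in KA and 5128 to 5637 CPM in sham libraries for astrocytes, and of 1598 to 1635 CPM in KA and 374 to 445 CPM in sham libraries for microglia. Of 9 neuronal markers 5 fell, with summed levels of 5149 to 5897 CPM in KA and 7048 to 7477 CPM in sham libraries. That neuronal count was 3 without sham 1, sham 3, KA 1 or KA 2, and 8 without KA+NBP 2, and 1 neuronal marker rose without KA 1. Of 7 fibroblast and meningeal markers 1 rose, with sums of 183 to 333 CPM in KA and 106 to 150 CPM in sham libraries. That number was 0 with any sham library, KA 1 or KA 2 left out, 2 with KA 3 left out, 4 with KA+NBP 1 or KA+NBP 3 left out and 7 with KA+NBP 2 left out. Of 9 choroid plexus markers 0 rose and 1, Kl, fell, with 10.2 ± 1.05 CPM in KA and 27.7 ± 3.66 CPM in sham mice (SD, n = 3 each), and without KA+NBP 2 there was also 1 that rose. In the main fit the other 8 were not called, and Ttr among them had 11.4 ± 1.48 CPM in KA and 11.3 ± 5.30 CPM in sham mice. For KA+NBP against KA mice 8 of 9 microglial and 6 of 9 astrocyte markers fell, 4 of 9 neuronal markers rose, 1 of 9 choroid plexus markers, Kl, rose and 1 of 7 fibroblast and meningeal markers, Dcn, fell. The astrocyte count was 3 without KA 1 or KA+NBP 3 and 2 without KA 2, KA 3 or KA+NBP 1, and the neuronal count 2 without sham 1, sham 3 or KA 2 and 1 without KA 1, KA 3, KA+NBP 1 or KA+NBP 3. With only the 6 libraries compared, 2 astrocyte, 7 microglial and 0 fibroblast and meningeal markers fell, and 1 neuronal marker rose. With KA+NBP 2 left out all 7 fibroblast and meningeal, 9 astrocyte, 9 microglial and 2 choroid plexus markers fell, and 6 neuronal markers rose. With KA 3 left out 1 fibroblast and meningeal marker fell, and with any 1 of the other 7 libraries left out 0 did. Fibroblasts and smooth muscle, like endothelium, are known to carry caveolae. All of these markers were above 0 in every library, and the part of these cell types in the values of the 10 genes was not tested.

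**Figure D3:**
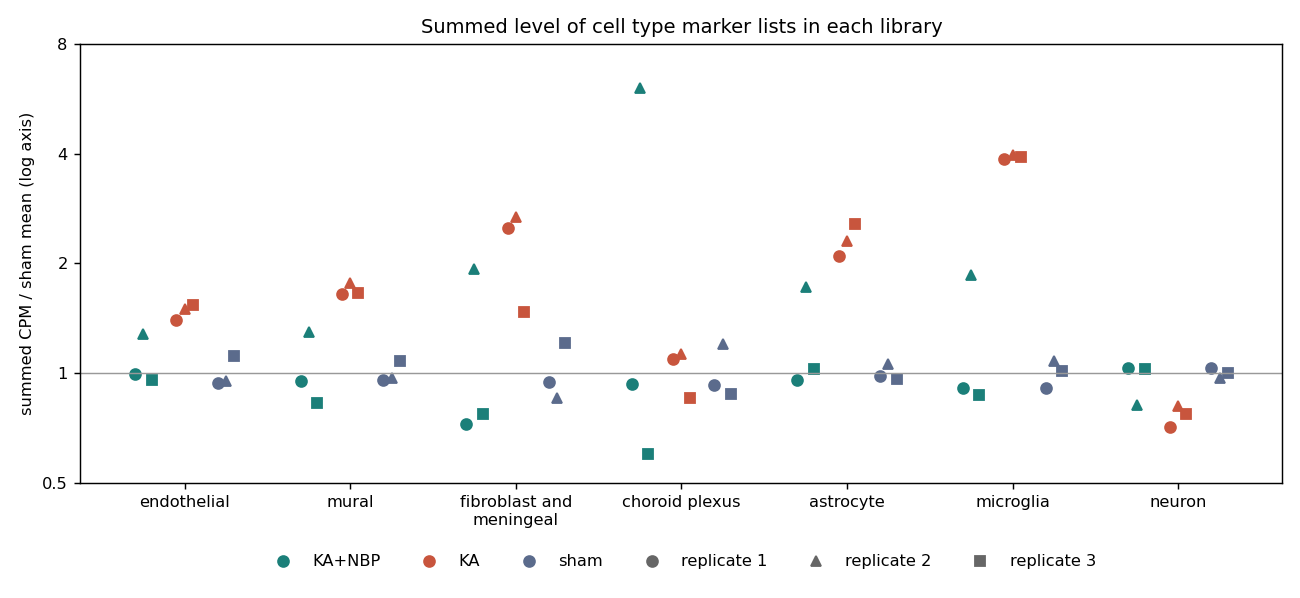
Summed CPM of 7 lists of cell type markers in each library, divided by the sham mean of the same list (log axis; KA+NBP, KA and sham from left to right within a list; symbols give the replicate number). The KA libraries lie above the sham libraries for endothelial, mural, fibroblast, astrocyte and microglial markers and below them for neurons, and KA+NBP 2 stands far above its group for choroid plexus.

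Set against the endothelial markers of the same library, the 10 genes divided. The measure is the log2 CPM of a gene minus the mean log2 CPM of the 15 endothelial markers, given as a description with no test, since 3 against 3 libraries cannot give an exact permutation p below 0.10. Cav1 stood at -0.12 ± 0.47 in KA+NBP, 0.91 ± 0.35 in KA and -0.14 ± 0.14 in sham mice (SD, n = 3 each). KA libraries lay above sham libraries without overlap for Cav1 (difference 1.06), Mfsd2a (0.58) and Cavin1 (0.58), whose rise was therefore larger than that of the endothelial marker mean. For Slc2a1 the value was 2.75 ± 0.14 in KA and 2.75 ± 0.06 in sham mice, a difference of -0.01, and for Abcb1a 1.27 ± 0.14 in KA and 1.33 ± 0.04 in sham mice, a difference of -0.07. The absolute rises of Slc2a1 and Abcb1a thus had the size of the rise of the endothelial marker mean. Plvap lay at -2.0 ± 0.31 in KA and -1.18 ± 0.19 in sham mice, below without overlap. Slc7a5 (difference -0.48), Slco1a4 (-0.29) and Lrp1 (-0.23) were also lower relative to endothelium in all KA libraries than in all sham libraries. These 3 overlapped when the median over the markers replaced their mean, and Abcg2 (-0.16) then did not, whereas Cav1, Mfsd2a, Cavin1 and Plvap stood apart on either measure.

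Between the KA+NBP and KA groups, Cav1 was the only gene of the 10 whose relative level was lower in all KA+NBP libraries than in all KA libraries, by 1.03, and the other 9 overlapped. With the median over the markers in place of their mean, Cav1 was again lower in all KA+NBP libraries (by 0.98), while Abcb1a (difference 0.11), Abcg2 (0.16) and Slco1a4 (0.23) were higher in all KA+NBP libraries than in all KA libraries. On the mean, KA+NBP 2 had relative values of 0.38 for Cav1 and 0.55 for Cavin1, and the Cavin1 value fell within the KA range of 0.47 to 0.58. KA+NBP 3 had 1.59 for Mfsd2a, next to the highest KA value, that of KA 3 at 1.60. The remaining KA+NBP values of these genes lay below all KA values.

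**Figure D4:**
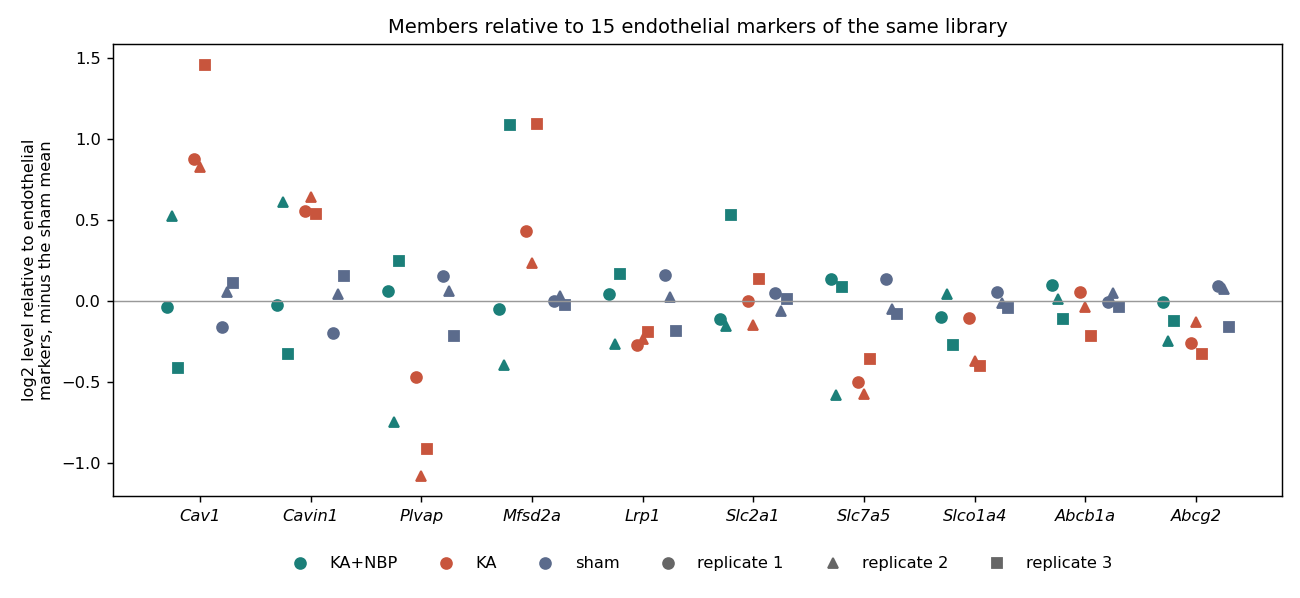
Log2 level of each gene relative to the mean of 15 endothelial markers of the same library, minus the sham mean (vertical axis, log2 units; colours give the group, symbols the replicate number). KA libraries lie above sham libraries for Cav1, Cavin1 and Mfsd2a and below them for Plvap. For Slc2a1 and Abcb1a the KA libraries overlap the sham libraries, and KA+NBP 3 lies above all others for Slc2a1.

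Related genes were examined in 4 lists. The counts of each stand beside shares over all tested genes of 19% higher and 14.6% lower in KA against sham mice. In KA+NBP against KA mice those shares were 12.7% lower and 10% higher. The caveola coat and neck list holds the other caveolins and cavins and the proteins that bend or seal the caveolar neck. It also holds the flotillin genes Flot1 and Flot2, which belong to neither group. Of its 11 tested genes 5 rose and 1 fell in KA against sham mice, with a median log2 fold change of 0.41. Ehd4 and Ehd2, ATPases of the caveolar neck family, rose by 1.33 (SE 0.21, edgeR adjusted p = 0.00285) and 1.05 (SE 0.17, edgeR adjusted p = 0.00306) on the log2 scale, while Ehd1, a family member better known for recycling endosomes, fell by 0.60 (SE 0.09, edgeR adjusted p = 0.00210). The other 3 that rose, named after their values were seen, were Cavin3 (1.02), the caveolin partner Cav2 (0.87) and Pacsin3 (0.83). The count of rises was 3 without sham 3, and 2 fell without KA+NBP 2. Among the same genes 4 fell and 1 rose in KA+NBP against KA mice: Ehd4 had 10.1 ± 3.51 CPM in KA+NBP and 25.0 ± 1.26 CPM in KA mice, Ehd2 9.55 ± 1.66 CPM in KA+NBP and 19.7 ± 2.72 CPM in KA mice, and Ehd1, the riser, 83.7 ± 2.14 CPM in KA+NBP and 54.5 ± 6.31 CPM in KA mice (SD, n = 3 each). Without KA+NBP 2 the numbers were 6 and 2.

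Among 8 tested ABC pumps outside the 10 genes, 4 rose and 0 fell in KA against sham mice, against 19% and 14.6% of all tested genes. Their median log2 fold change was 0.37. Abcc3, a conjugate exporter of the MRP family, rose by 1.86 (SE 0.33, edgeR adjusted p = 0.00455), Abca1, which loads cholesterol onto apolipoproteins, by 1.69 (SE 0.33, edgeR adjusted p = 0.00562) and Abcb1b by 0.76 (SE 0.17, edgeR adjusted p = 0.0105). The fourth was Abcc4 (0.56), named after its value was seen. The pumps that fell in KA+NBP against KA mice were 3: Abcc3 by 1.94 (SE 0.34, edgeR adjusted p = 0.00658), Abca1 by 1.17 (SE 0.32, edgeR adjusted p = 0.0307) and Abcb1b by 0.74 (SE 0.17, edgeR adjusted p = 0.0181). With KA 1, KA+NBP 1 or KA+NBP 3 left out 1 fell, and with KA+NBP 2 left out 4 fell and 1 rose. With only the 6 libraries compared 1 fell.

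Of 15 other solute carriers of the barrier, 5 rose and 0 fell in KA against sham mice, against 19% and 14.6% of all tested genes. Their median log2 fold change was 0.33. Slco2b1, an organic anion carrier, had 66.0 ± 3.23 CPM in KA and 24.8 ± 3.25 CPM in sham mice (SD, n = 3 each; log2 fold change 1.41, SE 0.20, edgeR adjusted p = 0.00210). The part of cells other than endothelium in the bulk levels of these carriers was not tested. Slc3a2, the heavy chain with which Slc7a5 forms its exchanger, rose by 0.33 (SE 0.06, edgeR adjusted p = 0.00382), and the choline transporter Slc44a1 by 0.56 (SE 0.11, edgeR adjusted p = 0.00637). The count was 3 without sham 1 or sham 3 and 8 without KA+NBP 3, and 1 gene fell without KA+NBP 2. Of the carriers 5 fell and 0 rose in KA+NBP against KA mice, with Slco2b1 at -1.26 (SE 0.20, edgeR adjusted p = 0.00518), Slc44a1 at -0.52 (SE 0.11, edgeR adjusted p = 0.0136) and Slc3a2 at -0.32 (SE 0.06, edgeR adjusted p = 0.00722). That count was 3 without KA 1 or 3, 2 without KA+NBP 1, 10 without KA+NBP 2 and 2 with only the 6 libraries compared. Slc3a2 passed in both comparisons and its partner Slc7a5 in neither; the difference between the pair was not tested.

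Of 13 genes for transcytosis and lipoprotein receptors, 2 rose and 2 fell in KA against sham mice, near the shares of 19% and 14.6% over all tested genes. Their median log2 fold change was 0.08. Apoe, a lipoprotein ligand of Lrp1 made largely by astrocytes and activated microglia, had 1410 ± 625 CPM in KA+NBP, 4067 ± 448 CPM in KA and 1180 ± 19.5 CPM in sham mice (SD, n = 3 each). Its log2 fold change was 1.79 (SE 0.26, edgeR adjusted p = 0.00209) in KA against sham mice and -1.53 (SE 0.25, edgeR adjusted p = 0.00569) in KA+NBP against KA mice. Lrpap1, the chaperone that keeps Lrp1 free of ligand during its folding, rose by 0.72 (SE 0.09, edgeR adjusted p = 0.00129) and, in KA+NBP against KA mice, fell by 0.63 (SE 0.09, edgeR adjusted p = 0.00350). The receptor Vldlr moved the other way, at -0.34 (SE 0.07, edgeR adjusted p = 0.00646) in KA against sham mice and 0.30 (SE 0.07, edgeR adjusted p = 0.0174) in KA+NBP against KA mice. The other gene that fell in KA mice, named after its value was seen, was the insulin receptor Insr (-0.21), and the number that fell was 1 with any 1 of the sham libraries or KA 2 left out. The number that rose in KA+NBP against KA mice was 0 without KA 3 or KA+NBP 1, 0 with only the 6 libraries compared and 2 without KA+NBP 2.

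Between KA+NBP and sham mice edgeR and DESeq2 each called 0 genes of the 4 lists. The smallest unadjusted p in each list was 0.123 for Lepr, 0.138 for Abca1, 0.166 for Slc29a1 and 0.192 for Flot1 (edgeR), so the count at an unadjusted p under 0.05 was also 0.

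**Figure D5:**
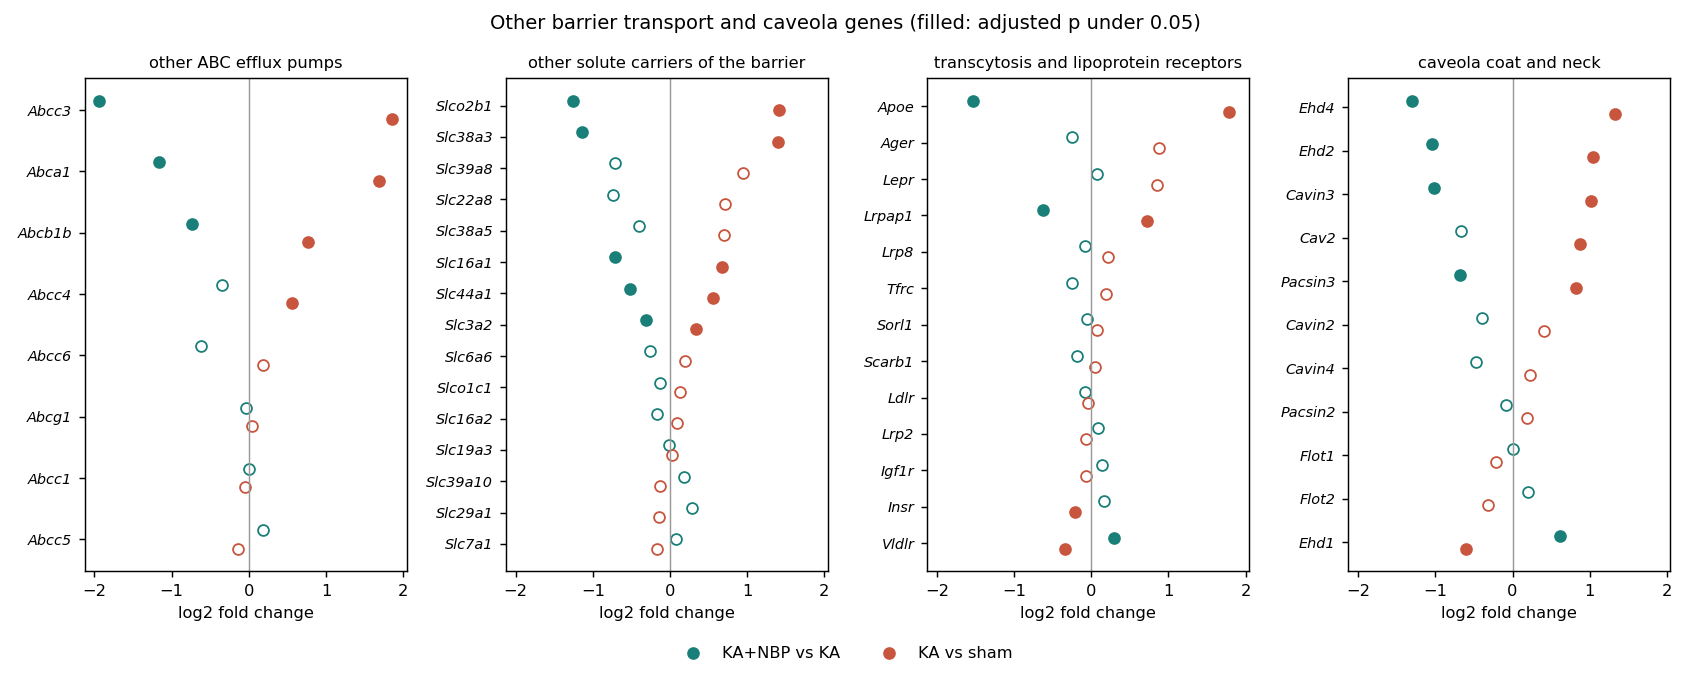
Log2 fold change of each tested gene of 4 lists related to the 10 genes, in KA+NBP vs KA and in KA vs sham; filled points have an edgeR adjusted p under 0.05. The comparisons share the KA libraries, so that an opposite sign of the 2 points of a gene is in part built in; Ehd1 and Vldlr lie on the opposite side from Ehd4 and Apoe.

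Genes with the most similar profiles over the 9 libraries were listed for the 3 genes of widest range, Cav1 (2.59 log2 units between the lowest and the highest library), Mfsd2a (1.79) and Cavin1 (1.67). The measure is the root mean square difference between log2 CPM profiles, each centred on its own mean, over 9 libraries. Closest to Cav1 were Efemp2, an extracellular matrix fibulin (0.15), the actin-binding gene Tagln2 (0.15) and Pmepa1 (0.17). Closest to Cavin1 were Abca9 (0.10), the zinc transporter Slc39a8 (0.12), which is also on the solute carrier list, and the transcription factor Elf1 (0.13). The nearest profiles to Mfsd2a were less close, at 0.22 for Smim3, 0.22 for CK137956 and 0.23 for Trim72. Of these, CK137956 (means of 1.48 CPM in KA+NBP, 3.37 in KA and 1.17 in sham) was low. So was Trim72 (0.875, 1.50 and 0.708 CPM in the same order), and counting error weighs more at such levels.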

How the data were processed

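The table the authors deposited holds, for 9 hippocampal libraries (3 each of KA+NBP, KA and sham) and 18474 genes, estimated counts, FPKM and TPM, per the file headers. The submitters' processing notes name GRCm39, RSEM 1.3.1, Bowtie2 and DESeq2 1.4.5 without their roles. Estimated counts as deposited by the authors were not whole for 5.65 to 6.61% of values and were rounded here. TPM as deposited by the authors served for level orders and an alternative fit, and FPKM as deposited by the authors only to repeat the sham order.

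Counts were fitted in R 4.3.3 with edgeR 4.0.16 (filterByExpr, TMM factors of 0.975 to 1.04, 1 model with a mean per group, quasi-likelihood F test, common dispersion 0.021). P-values were adjusted by Benjamini-Hochberg over 14752 genes with a threshold of 0.05. They set each difference against a spread between mice pooled over all 9 libraries, including the group not compared, with 3 mice per group. Log2 CPM took a prior count of 2. On data simulated for KA against sham, the fit recovered 174 of 200 genes with a 2-fold change. In that simulation 200 genes were changed and 14632 tested, whereas 33.6% of tested genes were called in the real comparison. The recovery is therefore only a check that the fit runs correctly. It does not give the chance of detecting a change in the barrier genes. Alternatives were RLE factors, no filter, the 6 libraries compared alone, a replicate block, DESeq2 1.42.0, limma 3.58.1 on log2(TPM + 1) and log2(TPM + 0.1), the median in place of the mean of the endothelial markers, and leaving out each of 9 libraries. Summing Abcb1a and Abcb1b was added after the data were seen.

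Replicate numbers were checked for pairing by correlating deviations from the group means over genes. KA+NBP and sham libraries of the same number gave 0.301, 0.332 and 0.126, and those of unlike number gave -0.31 to 0.192. The highest unlike value, for KA+NBP 3 with sham 1, thus exceeded the lowest like value. With 3 libraries per group these values cannot show whether the numbers pair the groups, and the main fit had no block. A block by number changed no call between KA+NBP and sham. The 10 genes and all lists were chosen with earlier results of these data known. All 10 genes are named; from each other list the 3 genes of smallest p in a comparison, and for the 3 genes of widest range the 3 nearest profiles, passing over predicted genes. No 2 libraries held identical values.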

Additional observations from a re-analysis of the deposited data

How the results depend on the processing

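With 3 mice per group, most single calls lay near the threshold and depended on 1 library. Cav1 and Lrp1 passed in KA against sham under all 16 alternatives. With 1 library left out, genes called in KA against sham ran from 1629 to 3677 higher and from 1074 to 3023 lower, and 2 to 8 of the 10 genes rose. In KA+NBP against KA the ranges were 523 to 2849 higher and 772 to 3506 lower, and 0 to 6 of the 10 fell. In KA+NBP against sham they were 0 to 1 higher and 0 lower. On log2(TPM + 1) and log2(TPM + 0.1), 3272 and 3266 genes were lower in KA against sham, and 2479 and 2466 higher in KA+NBP against KA. With only the 6 libraries of that comparison, 465 genes were higher, 600 lower and 0 of the 10 fell. With a replicate block 5 of the 10 fell in KA+NBP against KA, Slc2a1 (adjusted p = 0.0287) and Mfsd2a (0.0144) being added, and 7 rose in KA against sham. KA libraries and the libraries of the same number in the other groups gave correlations of -0.0450 to 0.0447. DESeq2 called 6 of the 10 lower in KA+NBP against KA, and 1 gene of all lower in KA+NBP against sham. Relative to the median of the endothelial markers, Abcb1a in KA+NBP against sham differed by 0.13. In KA+NBP against sham, where no gene was called, signs turned. The log2 fold change of Slco1a4 was -0.0148 with the replicate block, and -0.0404 and -0.0424 on the TPM scales. Over libraries left out, values ran from -0.0690 to 0.24 (Abcb1a), -0.13 to 0.0526 (Abcg2), -0.0506 to 0.55 (Mfsd2a), -0.12 to 0.0455 (Slc7a5), -0.25 to 0.17 (Slco1a4), -0.29 to 0.49 (Cav1), -0.25 to 0.54 (Cavin1) and -0.16 to 0.0892 (Plvap). For Cav1, Cavin1 and Abcb1a the turn came without KA+NBP replicate 2 and for Mfsd2a without KA+NBP replicate 3. The cause of these changes was not tested. The all-gene median moved by at most 0.08 on the log2 scale under any scaling.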
